A study of Mus musculus with 2 samples.

Results

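The Mir26 family of the mouse has 3 genes, Mir26a-1, Mir26a-2 and Mir26b, each lying in a gene of the Ctdsp phosphatase family. The members were taken by gene symbol from the 1973 miRNA gene rows counted in embryonic forebrain. All 3 had a row, so no member was missing. MicroRNAs (miRNAs) are excised from hairpin-shaped precursors and dampen the messenger RNAs that they base-pair with. Pairing rests mostly on the seed, bases 2 to 8 of the mature RNA, so genes with the same seed are treated as a family. Ctdsp proteins are small phosphatases that act on the tail of RNA polymerase II and serve the REST repressor complex, which keeps neuronal genes silent in cells that are not neurons. In zebrafish, a miR-26 encoded within ctdsp2 is known to repress its own host during neuronal differentiation.

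The series holds 1 group of 2 libraries of RNAs below 30 nt in size. Both came from forebrain of B6NCrl mice at embryonic day 15.5, with male and female embryos pooled. Replicate 1 pooled tissue of 78 embryos and replicate 2 pooled tissue of 62. No treatment, genotype or time was compared, and a pool hides the spread between animals. No source used here says whether the pools shared litters or library batches. The p-values compare the counts of these 2 libraries and cover counting error only, not the spread between pools.

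Replicate 1 held 4464927 reads on the sense strand of miRNA genes and replicate 2 held 4753555. A further 44.6% and 42.4% of the reads stood in a separate row for reads placed at more than 1 locus, outside every gene row. Of the 9 neural marker genes listed, 8 had a row and 5 had at least 10 counts in each library. The defining Mir124a genes lay between 1.05 and 2.80 CPM, with at most 17 counts in a library and 0 for Mir124a-3 in replicate 1. Mir124a has copies at several loci, and how many of its reads stood in that separate row was not tested. The Mir124a values are therefore levels of the counted reads only. Mir137 reached 9092 ± 926 CPM (SD, n = 2). CPM are sense counts scaled so that the gene rows of a library sum to 1000000.

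The mature sequences are shown first, because they set which reads could be told apart between the members. RefSeq (GRCm38.p6) gave a hairpin and both arms for all 3 genes. Sequences run 5′ to 3′, and capitals mark the seed.
miR-26a-5p (Mir26a-1 and Mir26a-2): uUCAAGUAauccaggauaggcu
miR-26b-5p (Mir26b): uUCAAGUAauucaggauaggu
miR-26a-1-3p (Mir26a-1): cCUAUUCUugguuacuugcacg
miR-26a-2-3p (Mir26a-2): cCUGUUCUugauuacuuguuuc
miR-26b-3p (Mir26b): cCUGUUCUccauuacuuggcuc
The 5p arms of all 3 genes share the seed UCAAGUA, and no other gene among the 1738 mature arms of the table has it. The 5p arm of Mir26a-1 and Mir26a-2 is the same over all 22 bases. The 21 bases of miR-26b-5p differ from miR-26a-5p at 2 positions, C11U and C21U (miR-26a base, position from the 5′ end, miR-26b base). The 3p arms are more diverse. Those of Mir26a-1 and Mir26a-2 differ at 6 of 22 positions, and the first of these, A4G, lies inside the seed. The 3p arm of Mir26b differs from that of Mir26a-2 at 4 positions and from that of Mir26a-1 at 8. By their 3p seed, Mir26a-2 and Mir26b thus form a pair (CUGUUCU) and Mir26a-1 stands apart (CUAUUCU).

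The hairpins show how far the likeness reaches beyond the arms. Here capitals mark the 5p and 3p arms.
Mir26a-1: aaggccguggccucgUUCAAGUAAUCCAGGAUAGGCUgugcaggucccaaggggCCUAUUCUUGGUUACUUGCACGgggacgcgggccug
Mir26a-2: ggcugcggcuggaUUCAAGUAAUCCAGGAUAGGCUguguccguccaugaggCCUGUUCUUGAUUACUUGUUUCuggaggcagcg
Mir26b: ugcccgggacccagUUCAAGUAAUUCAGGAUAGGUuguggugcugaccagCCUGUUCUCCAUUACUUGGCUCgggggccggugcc
The longest stretch that the hairpins of Mir26a-1 and Mir26a-2 share has 25 bases, from the first base of the 5p arm to 3 bases past its end. Mir26b shares at most 11 bases in a row with Mir26a-1 and 10 with Mir26a-2. Of the 20-base windows in the hairpin of Mir26a-1, 6 of 71 also occurred in the hairpin of Mir26a-2, among them all 3 windows inside the 5p arm. No 20-base window of either 3p arm, and none of the 66 windows of Mir26b, occurred in another hairpin of the table. At 26 bases no window of any member was shared. Only hairpins were searched, since no genome sequence was used.

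**Figure D1:**
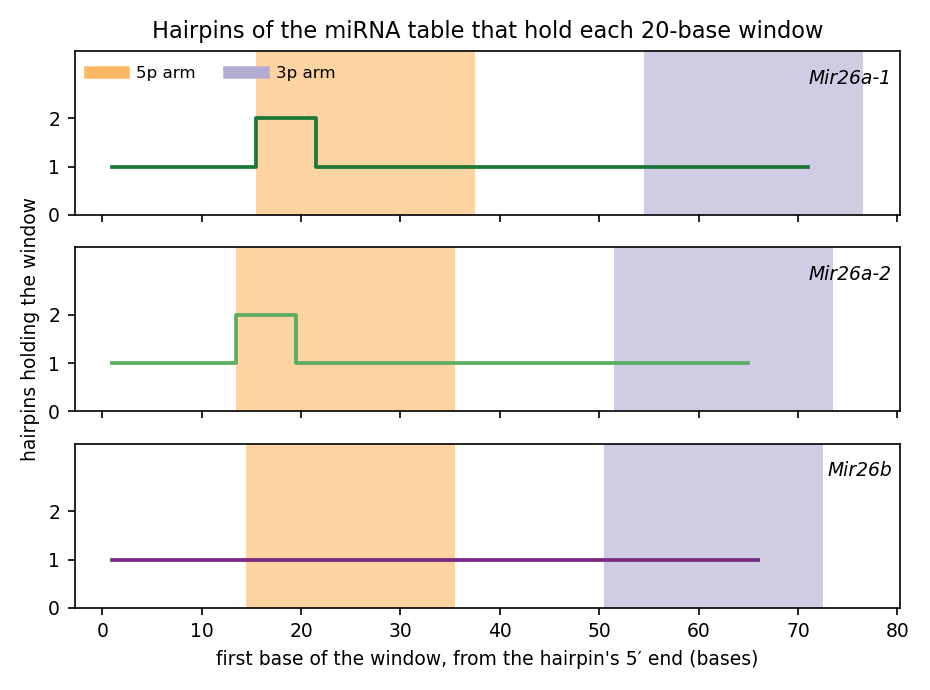
Number of hairpins in the miRNA table that hold each 20-base window (vertical axis), by the window's first base counted from the hairpin's 5′ end (horizontal axis), for the 3 members, with the 5p arm shaded orange and the 3p arm violet. Only windows that start in the first bases of the 5p arm of Mir26a-1 and Mir26a-2 are held by 2 hairpins, and every window of Mir26b is held by 1.

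Each gene lies on the strand of its host (coordinates of mm10, annotation GENCODE M21). Mir26b (ENSMUSG00000065468.1, chr1:74394310-74394394, plus strand) lies in intron 4 of 6 of Ctdsp1, an intron of 564 bases. Mir26a-2 (ENSMUSG00000065430.1, chr10:126995530-126995613, plus strand) lies in intron 5 of 7 of Ctdsp2, an intron of 1946 bases. A pair of other Ctdsp2 transcripts is annotated with an exon that overlaps this hairpin, by at most 1 base. Mir26a-1 (ENSMUSG00000065513.1, chr9:119031796-119031885, plus strand) lies in intron 5 of 7 of Ctdspl, an intron of 3283 bases. The hosts differ widely in size, and the hairpin starts 2801 bases into Ctdsp1, 16813 bases into Ctdsp2 and 105343 bases into Ctdspl. The related gene Ctdspl2 has no miRNA gene annotated inside it. Ctdsp2 holds a second one, Mir546, with 0 counts in replicate 1 and 7 in replicate 2. Messenger RNAs of the hosts were not measured, since the libraries held small RNAs.

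Mir26b held nearly all counts of the family, and both Mir26a genes lay below the median of the rows with at least 10 counts in each library. Mir26b had 70599 counts (15812 CPM) in replicate 1 and 59550 counts (12527 CPM) in replicate 2. Mir26a-2 had 114 counts (25.5 CPM) in replicate 1 and 130 counts (27.3 CPM) in replicate 2. Mir26a-1 had 23 counts (5.15 CPM) in replicate 1 and 26 counts (5.47 CPM) in replicate 2. The order Mir26b, Mir26a-2, Mir26a-1 was the same in both libraries, and no value of 1 gene overlapped that of another. As means the levels were 14170 ± 2322, 26.4 ± 1.28 and 5.31 ± 0.225 CPM (SD, n = 2). Counting error exceeds this SD for both Mir26a genes. For Mir26a-1 the 95% Clopper-Pearson interval ran from 3.27 to 7.73 CPM in replicate 1 and from 3.57 to 8.01 CPM in replicate 2. For Mir26a-2 it ran from 21.1 to 30.7 CPM in replicate 1 and from 22.8 to 32.5 CPM in replicate 2. As the reads carry no molecular identifiers, such intervals cover counting error only.

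**Figure D2:**
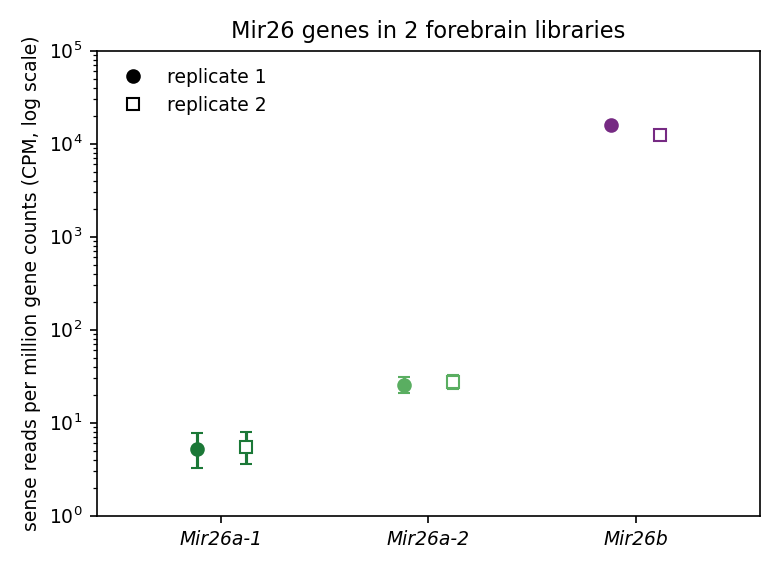
Level of each Mir26 gene (CPM of sense gene counts, log scale) in each of the 2 libraries, with 95% Clopper-Pearson counting intervals as bars, hidden by the symbol for Mir26b. Mir26b lies at 15812 and 12527 CPM, Mir26a-2 at 25.5 and 27.3 CPM and Mir26a-1 at 5.15 and 5.47 CPM.

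Within the family the shares do not depend on how a library is scaled. Mir26b held 99.81% of family counts in replicate 1 (interval 99.77 to 99.84) and 99.74% in replicate 2 (interval 99.69 to 99.78). For every count of Mir26a-2 there were 619 counts of Mir26b in replicate 1 (interval 515 to 751) and 458 in replicate 2 (interval 386 to 548). Mir26a-2 stood 4.96-fold above Mir26a-1 in replicate 1 (interval 3.15 to 8.13) and 5.00-fold above it in replicate 2 (interval 3.26 to 7.94), so this ratio was the same within counting error. The 3 genes together made up 1.58% of sense gene counts in replicate 1 and 1.26% in replicate 2. Because a separate row is named for multi-mapping reads, the gene rows were read as holding reads placed at 1 locus, but no source used here states the counting rule. The mature arm miR-26a-5p lies in both Mir26a hairpins, and how many of its reads stood in the row for reads placed at more than 1 locus was not tested. The Mir26a values are therefore levels of the counted reads and not of miR-26a-5p. Counts per gene do not tell the 5p and 3p arms apart either.

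Among all 1973 rows Mir26b ranked 14 by mean CPM, Mir26a-2 ranked 266 and Mir26a-1 ranked 326. At least 10 counts in each library were found in 370 rows, all 3 members among them, and the median of these rows was 110.9 CPM. Of these rows 104 lay below Mir26a-2 and 46 below Mir26a-1. Mir26b moved from rank 13 in replicate 1 to rank 16 in replicate 2. Its nearest rows by level in both libraries were Mir487b (15741 and 13659 CPM), Mir181c (14280 and 13887 CPM) and Mir20a (13586 and 12273 CPM). Mir26b was above Mir181c in replicate 1 and below it in replicate 2, so the order of these neighbours was not separated. The rows nearest to Mir26a-2 were Mir493, Mir196b and Mir3080, between 27.2 and 27.4 CPM on average. Those nearest to Mir26a-1 were Mir302c, Mir6977 and Mir449c, between 5.41 and 5.98 CPM. Nearness was measured over 2 libraries only, as the distance of log2 CPM with 1 CPM added.

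No member had a read on the opposite strand. For Mir26b, 0 of 70599 reads in replicate 1 allows a share of up to 0.00425%, and 0 of 59550 in replicate 2 allows up to 0.00504%. For Mir26a-1 the limit was 13.0% and 11.5%, and for Mir26a-2 it was 2.63% and 2.31%, since few reads were counted. Such one-strand rows were common: of 280 rows with at least 100 reads over both strands in each library, 240 had no opposite-strand count.

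The 2 libraries differed in Mir26b and not detectably in the Mir26a genes. Replicate 2 had less Mir26b, at a log2 ratio of -0.34 (counting interval -0.35 to -0.32, replicate 2 over replicate 1). In an exact binomial comparison (two-sided, Benjamini-Hochberg adjusted over 457 rows) it passed the threshold of 0.05, with an adjusted p too small for the software to hold. Mir26a-2 had a log2 ratio of 0.10 (interval -0.27 to 0.47, exact binomial test, adjusted p = 0.764). Mir26a-1 had a log2 ratio of 0.08 (interval -0.78 to 0.96, exact binomial test, adjusted p = 0.959). The log2 ratio of Mir26b, -0.34, lies inside the interval of Mir26a-1 and below that of Mir26a-2, and the difference between members was not tested. The same test called 36.3% of all tested rows in either direction, 17.1% of them as lower, and 55.0% of rows with at least 100 counts in each library, so 1 call among 3 members is near the background.

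The difference in Mir26b was about 1 SD of the spread between the libraries over all rows, but was larger than that of other rows of like level. The edgeR common dispersion gave a coefficient of variation of 16.1%, which makes the SD of a log2 ratio between 2 libraries 0.33. Of the 370 detected rows, 106 had a larger absolute ratio than Mir26b, and 253 and 272 had a larger one than Mir26a-2 and Mir26a-1. The median absolute ratio was 0.19. Over the 269 rows with at least 100 counts in each library, where counting error is smaller, 55 had a larger absolute ratio than Mir26b and the median was 0.16. Among the 20 rows highest in mean CPM 0 exceeded it, and the next largest absolute ratio was 0.27, that of Mirlet7g. All 3 rows nearest to Mir26b in level were also called lower in replicate 2, with log2 ratios of -0.20 for Mir487b, -0.04 for Mir181c and -0.15 for Mir20a (exact binomial test, adjusted p at most 2.38e-06). With the most abundant row, Mir99a, left out of the total, Mir181c turned to 0.02 and was called higher, while Mir487b, Mir20a and Mir26b were still lower.

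**Figure D3:**
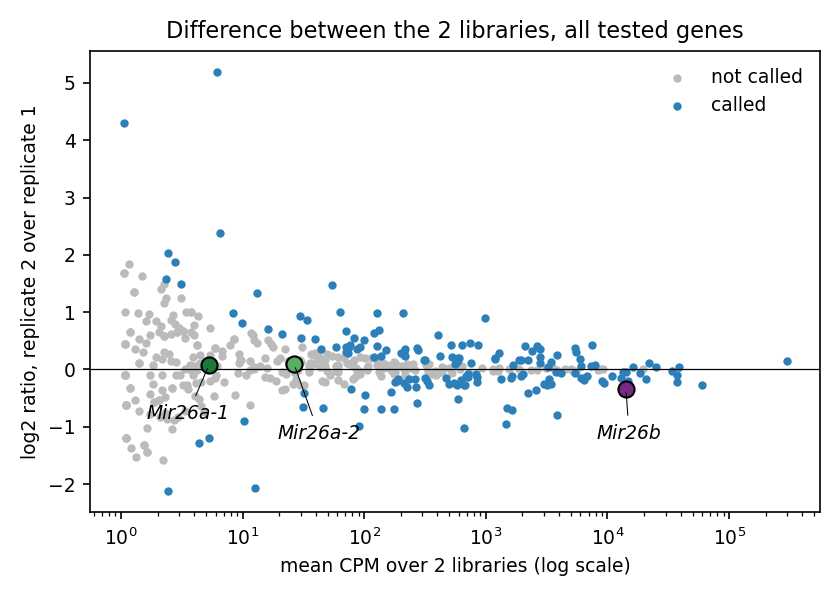
Log2 ratio of replicate 2 over replicate 1 (vertical axis, 0.5 counts added) against mean CPM (horizontal axis, log scale) for the 457 tested rows, in blue where the exact binomial test called the row. Mir26b sits at -0.34 among deeply counted rows, and Mir26a-1 and Mir26a-2 sit at 0.08 and 0.10 among rows with few counts.

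Marker miRNAs of other cell types also moved between the pools. All 4 choroid plexus markers were lower in replicate 2, and their summed level went from 4106 to 2338 CPM with none at 0. Of 8 neural markers 2 were lower, 1 was higher and 5 were not called (4 lower and 1 higher with TMM scaling), and their sum went from 13722 to 12253 CPM. Most of this sum was Mir137, which went from 9747 to 8437 CPM. The CPM of the Mir128 and Mir9 genes with a row fell by less. That of the Mir124a genes, with at most 17 counts in a library, rose. Of 4 muscle markers Mir206 was lower and Mir1a-1, Mir133a-1 and Mir133a-2 were at 0, with sums of 20.6 and 4.84 CPM. These sums are thus those of Mir206 alone. Mir1a and Mir133a have copies at several loci, and Mir1a-2 had no row. How many of their reads stood in the row for reads placed at more than 1 locus was not tested. These are the lists whose summed CPM fell. By this CPM scaling, the sums of the endothelial, mural, oligodendrocyte, erythroid, immune, epithelial and liver lists rose, with values in the closing section. The immune rise was small, from 163.7 to 166.8 CPM. Endothelial Mir126a turned to a log2 ratio of -0.02 with all reads as the total. Sums under other scalings were not computed, so the direction of small changes is open. Over all tested rows the same test called 36.3% in either direction and 17.1% as lower. In bulk tissue, fewer cells of a type and less RNA per cell cannot be told apart. The part of cell makeup in the difference of Mir26b was not tested.

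The members were placed beside other miRNAs of protein-coding hosts, from a list of 30 genes that all had a row. Their median was 1381 CPM, with a range from 3.90 CPM for Mir103-1 to 59954 CPM for Mirlet7g. Mirlet7g, in Wdr82, Mir335, in Mest, and Mir30e, in Nfyc, headed the list. Mir26b would stand below 5 of the 30, and 2 lay below Mir26a-2 and 1 below Mir26a-1. Between the libraries 10 of the 30 were lower in replicate 2, 5 were higher and 15 were not called, with a median log2 ratio of -0.00056 against 0.05 over all tested rows. This split depended on scaling, with 14 lower and 4 higher by TMM and 7 lower and 12 higher without Mir99a in the total.

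Other miRNAs with copies at several loci gave a wide range of levels. From a list of 50 such genes 47 had a row, with a median of 206.6 CPM and a range from 0.210 to 6736 CPM. Mir181a-1 (6736 ± 381 CPM), Mir16-1 (5193 ± 76.2 CPM) and Mirlet7f-2 (3312 ± 273 CPM) were the highest. Of these 47 genes 0 exceeded Mir26b, 32 exceeded Mir26a-2 and 36 exceeded Mir26a-1. Of the 44 listed genes with known arms, 41 share an arm with another gene of the RefSeq table, and 3 do not. For 20 miRNAs whose counted copies each had at least 10 counts in total, the highest copy exceeded the lowest by a median of 2.95-fold. The range ran from 1.15-fold for Mir125b to 224-fold for Mir9, whose copy Mir9-1 had no row. These folds compare counted reads, and reads placed at more than 1 locus are outside them. The 4.98-fold gap between Mir26a-2 and Mir26a-1 was exceeded by 8 of the 20. Between the libraries 12 of 46 tested genes were higher, 10 were lower and 24 were not called, with a median log2 ratio of 0.01. By TMM 11 were higher and 14 lower, and without Mir99a in the total 16 were higher and 9 lower.

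Levels by sequence class followed no single order. Over the 858 rows with a hairpin and mature arms in the table, the median was 0.540 CPM for 775 genes with no shared arm, 29.3 CPM for 52 genes with 1 of 2 arms shared and 0 for 31 genes with every arm shared. Many rows of the first kind had few or no counts. Among detected rows the medians were 121.3, 206.6 and 55.2 CPM over 273, 35 and 8 genes. Mir26a-1 and Mir26a-2 belong to the genes with 1 of 2 arms shared, where 24 of 52 lay below Mir26a-2 and 20 below Mir26a-1. Mir26b has no shared arm, and 12 genes of that kind were above it. In neither of the other kinds did a gene reach the level of Mir26b. Reads placed at more than 1 locus are outside these levels, which bears on the kinds with shared arms.

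Within groups of genes with the same seed, a more regular order was seen in the counted reads. The groups were formed after values had been seen, and are given as counts only. Some of their genes share the mature arm and others have an arm of their own, and a group was kept where its highest shared-arm gene reached 10 CPM. A further 6 groups with an own-arm gene of at least 10 CPM were left out, since their shared-arm genes lay below that level and the order was fixed by the minimum. Of the 11 groups kept beside Mir26, the highest gene with its own arm was above the highest gene with a shared arm in 10. In the remaining group Mir218-2, at 28.6 CPM, was above Mir7002, at 0.217 CPM. Several groups hold more own-arm genes than shared-arm genes, as in the group of Mir16-1 with 8 and 2. The highest of more genes is more likely to be high, so this comparison was uneven. Of 4 such groups with a single gene of its own arm, as Mir26 has, this gene was the higher in 3. The ratio of the highest genes was 536 for Mir26b over Mir26a-2, the largest of the 12 groups. Next came Mir30e over Mir30c-1, with a ratio of 419.9, and the median was 4.45. The smallest gaps in the own-arm direction were near 2-fold, as for Mir92b over Mir92-1 (2.09) and Mir181c over Mir181a-1 (2.09). Some genes occur in 2 groups through their 5p and 3p arms. The table is not complete, so a gene whose copy it lacks counts as having its own arm. Reads placed at more than 1 locus are outside these values, which bears on genes with a shared arm. How far the order and the ratios follow from this was not tested, so they describe counted reads and not abundance.

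**Figure D4:**
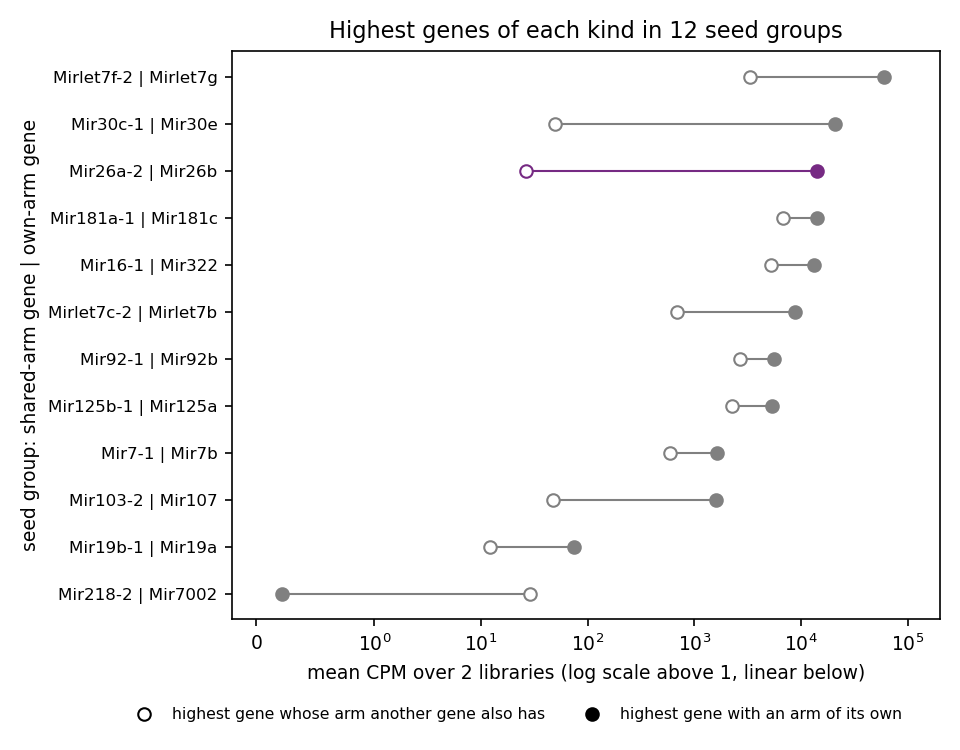
Mean CPM over the 2 libraries (horizontal axis, logarithmic above 1 and linear below) of the highest gene with a mature arm shared with another gene (open circle) and the highest gene with its own arm (filled circle) in each of 12 seed groups whose shared-arm gene reached 10 CPM. The open circle lies to the right only for Mir218-2 and Mir7002, and the line for Mir26a-2 and Mir26b, in violet, spans a 536-fold gap. Reads placed at more than 1 locus are outside these values, which bears on genes with a shared arm.

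The miRNAs Mir9, Mir124a, Mir132 and Mir212 are linked to REST and were listed because Ctdsp phosphatases serve that repressor. Of 8 listed genes 7 had a row, and Mir9-1 had none. Mir9-3 stood at 733 ± 21.2 CPM, Mir132 at 583 ± 37.1 CPM and Mir212 at 31.0 ± 5.84 CPM. By mean CPM each of these lay below Mir26b and above both Mir26a genes. Mir9-2 and the Mir124a genes, between 1.05 and 3.26 CPM on average, lay below both Mir26a genes. Mir9-2, at 3.58 CPM in replicate 1, was inside the counting interval of Mir26a-1 there (3.27 to 7.73 CPM). In replicate 1, however, Mir212 (26.9 CPM) lay inside the counting interval of Mir26a-2 (21.1 to 30.7 CPM), so their order was not separated there. Mir132 was higher in replicate 2 by 0.13 on the log2 scale (exact binomial test, adjusted p = 0.00358), a call lost with TMM scaling (exact binomial test, adjusted p = 0.0514), DESeq2 scaling (0.0903) and all reads as the total (0.203). Mir124a-3, with 0 and 10 counts, was also called (exact binomial test, adjusted p = 0.00706), and the other 5 were not. Mir9-3, at -0.06, was called lower with TMM (exact binomial test, adjusted p = 0.0187), DESeq2 and all-reads scaling, and Mir212 was called higher without Mir99a in the total (exact binomial test, adjusted p = 0.0296). The list's median level was 3.26 CPM. Mir9 and Mir124a have copies at several loci, so their values too are levels of the counted reads only.

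The hosts were searched for the seed match of their own miRNAs. The letters TACTTGA, the reverse complement of the shared 5p seed, were sought on the transcript strand in the longest annotated 3′ UTR of each gene. Ctdsp2, the host of Mir26a-2, holds 1 match in 3489 bases, shown because the match also lies in the 3′ UTR of the Ctdsp2 transcript that carries the miRNA in an intron (chr10:126997566-126997572, plus strand, match in capitals).
Ctdsp2: cccaagtgttgctctTACTTGAt
Ctdspl2, which hosts no member, holds 1 match in 3014 bases (chr2:122012743-122012749, plus strand).
Ctdspl2: taattgttgacaatgTACTTGAt
Ctdsp1 (1701 bases) and Ctdspl (3349 bases) hold no such letters in this window. Of all genes with a 3′ UTR at least as long as that of Ctdsp2, 24.6% hold the match in the same length, and 21.4% do for the length of Ctdspl2. A match of letters is a description and no measured site.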

How the data were processed

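Small RNA libraries of 2 pools of embryonic mouse forebrain were used. The deposited files hold raw read counts per miRNA gene on either strand and on each strand, and per the deposited README text they were made from alignments to mm10 with GENCODE M4 annotation. No source used here names the aligner or the counter. The 4 rows that name no gene were left out of library sizes and tests. Their shares of all reads in replicates 1 and 2 were 14.3% and 18.2% unmapped, 44.6% and 42.4% multi-mapping, 2.42% and 2.53% without a feature on either strand and 0 ambiguous. The column with 98.4% and 98.5% of gene counts was taken as the sense strand.

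Identifiers were matched to GENCODE M21 symbols (1894 of 1973 rows), and hairpins and arms to RefSeq sequences of GRCm38.p6 by symbol. CPM is the sense count over the library's sum of sense gene counts, times 1000000. Libraries were compared for rows with at least 10 counts in total by an exact binomial test (scipy 1.17.1) against each library's share of all gene counts. P-values were adjusted by Benjamini-Hochberg. A prior trial of the test used simulated counts with counting error only, so it does not cover the spread between pools. The test compares 2 libraries and covers counting error only, and no model of conditions could be fitted within 1 group. Log2 ratios had 0.5 counts added, and limits for a count of 0 used 3 counts. edgeR 4.0.16 gave the dispersion and TMM factors, and DESeq2 1.42.0 gave size factors.

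Named genes were the members, the 3 rows nearest to each in level and the 3 highest genes of each list described. Mir103-1, Mir124a, Mir206, Mir546, Ctdspl2 and the genes of seed groups were named after their values were seen. Members and lists were chosen with earlier results of these data known. The values of the other marker lists, endothelial, mural, oligodendrocyte, erythroid, immune, epithelial and liver, are given in the closing section. The alternatives tried were scaling by TMM, by DESeq2, without the most abundant row and by all reads (the last chosen after seeing the data), either-strand counts, different count minimums, 5 counts added, a looser match of arms and leaving out each replicate.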

Additional observations from a re-analysis of the deposited data

How the results depend on the processing

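No paired analysis was possible because there is 1 group, and the library ratio needs both replicates, so it has no value with 1 left out. Of 72 values recomputed under an alternative, 62 were counted as kept and none reversed. Ratios were kept if direction and side of the threshold held, and levels and shares if they moved by no more than the spread between replicates. The number of called rows was kept if it stayed of like size, whatever the direction of the calls. The other 10 values moved by construction, through another denominator or another set of genes. Part of the 62 were also fixed by construction. Leaving out 1 of 2 replicates always moves a mean by less than their SD. Family shares could not change with either-strand counts, since no member had an opposite-strand count. Without the most abundant row (Mir99a, 28.2% and 31.1% of gene counts) the mean levels were 20110 CPM for Mir26b, 37.6 for Mir26a-2 and 7.56 for Mir26a-1. Scaled to all reads of a library they were 5283, 9.83 and 1.97. Leaving out a replicate gave 12527 to 15812 CPM for Mir26b, 27.3 to 25.5 for Mir26a-2 and 5.47 to 5.15 for Mir26a-1. Over detected rows only, the class medians were 121.3 CPM (no arm shared), 206.6 (1 of 2 arms shared) and 55.2 (every arm shared). With arms counted as shared from their first 18 bases, the median for 1 of 2 arms shared was 42.1 CPM.

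The log2 ratio of Mir26b stayed between -0.40 (all reads) and -0.28 (without Mir99a) and was called under all 8 alternatives. That of Mir26a-2 stayed between 0.03 and 0.16 over 8 alternatives (adjusted p from 0.552 to 0.978) and that of Mir26a-1 between 0.02 and 0.14 over 7 (adjusted p from 0.876 to 1). Neither was called in any. Mir26a-1 could not be tested at a minimum of 100 counts. The number of called rows lay between 156 and 181, against 166, but the share called higher moved from 53.0% to 43.4% with TMM, 41.7% with DESeq2 scaling, 69.1% without Mir99a and 38.4% with all reads. Depth limits the Mir26a genes, with at most 26 counts for Mir26a-1 in a library, and their reads in the multi-mapping row are unknown.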

Other observations

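Markers of further cell types were measured in the same libraries. Endothelial Mir126a stood at 15856 CPM in replicate 1 and 16377 CPM in replicate 2, near the level of Mir26b, and was called higher in replicate 2. It was not called with TMM or DESeq2 scaling and was called lower with all reads as the total. The 3 mural and mesenchymal markers summed to 3434 and 3777 CPM (2 called higher, 1 not called), and the 4 epithelial markers to 1624 and 1804 CPM (2 higher, 2 not called; 2 higher and 1 lower with TMM scaling). The 3 oligodendrocyte lineage markers summed to 421 and 462 CPM (1 higher, 2 not called). Erythroid markers summed to 139.5 and 164.9 CPM (1 of 3 higher, none with TMM scaling), immune markers to 163.7 and 166.8 CPM (1 higher and 1 lower, with no row for Mir142), and the liver marker Mir122 stood at 65.6 and 88.6 CPM and was called higher. None of these was at 0.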
